A study of Mus musculus with 15 samples.

Results

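The levels of 10 genes of neutrophils and of the acute-phase response, S100a8, S100a9, Ngp, Camp, Lcn2, Mmp9, Retnlg, Ly6g, Cxcr2 and Saa3, were followed mouse by mouse in gastrocnemius muscle of aged mice. They were taken from a list of symbols, all 10 of which matched 1 Ensembl gene each among the 55450 genes counted. The genes were chosen by their levels per mouse in earlier results from the same libraries, so the levels and fold changes of its genes are given as a description and not as tests. In most of these genes a single Low Run mouse, D68, held most of the signal of its group, while Ngp and Camp were also high in the High Run mouse D53. Lcn2 and Saa3 followed other orders of mice.

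The libraries came from 15 female C57BL/6JN mice more than 17 months old. Mice with at most 1 positive frailty marker made up the Low groups (labelled robust) and mice with at least 2 made up the High groups (labelled frail). The Low Control (n = 4: D8, D9, D11, D98) and High Control (n = 3: D23, D25, D67) mice did not undergo the running stress, and the Low Run (n = 4: D57, D61, D66, D68) and High Run (n = 4: D49, D52, D53, D62) mice ran downhill on a treadmill in 2 bouts, with the belt tilted 22 degrees and moving 13 m/min. The muscle of the Run mice was taken 24 h after the last bout. Each library is 1 mouse and holds RNA from a piece of pulverised whole muscle with its blood vessels, and the protocols used here mention exsanguination but no perfusion. No sequencing batch is given in the labels.

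Neutrophils leave the bone marrow with their granule proteins already made. Primary granules hold myeloperoxidase and serine proteases, specific granules hold lactoferrin, lipocalin-2, cathelicidin and neutrophilic granule protein, and gelatinase granules hold matrix metalloproteinase 9, and the transcripts for these classes are made in that order as the cell matures. S100A8 and S100A9 form calprotectin, the most abundant cytosolic protein pair of the mature neutrophil, and the acute-phase response is the rise of plasma proteins such as serum amyloid A that follows interleukin-1 and interleukin-6. Lipocalin-2 and the serum amyloid encoded by Saa3 are also made by cells other than neutrophils.

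The total per library ranged from 19395125 counts in D68, the shallowest, to 30699216 counts, with a median of 25926420. Muscle fibre markers (Ckm, Acta1, Myh4, Mylpf and Tnnt3) summed to between 104115 and 168446 counts per 1000000 (CPM) in every mouse, with 121536 in D68 and 138681 in D53, so both libraries held muscle at the level of the others. All CPM below are counts divided by the library size after trimmed mean of M values (TMM) scaling. In bulk muscle, fewer cells of a type cannot be told apart from less RNA per cell.

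Compared per kilobase of exon, so that genes of different length could be set side by side, the median level over the 15 mice was highest for S100a9, at 11.1 CPM per kilobase, then S100a8 at 7.03 and Retnlg at 2.30. Lcn2 followed at 1.06 CPM per kilobase, Mmp9 at 0.807, Cxcr2 at 0.276 and Ngp at 0.177. Saa3 (0.0567), Camp (0.0487) and Ly6g (0.0470) had the lowest medians on that scale. Camp had 0 counts in 7 mice and Ly6g in 6, and 3 counts, the limit that a count of 0 allows, correspond to between 0.0945 and 0.150 CPM in these libraries. The other 8 genes had at least 1 count in every mouse.

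**Figure D1:**
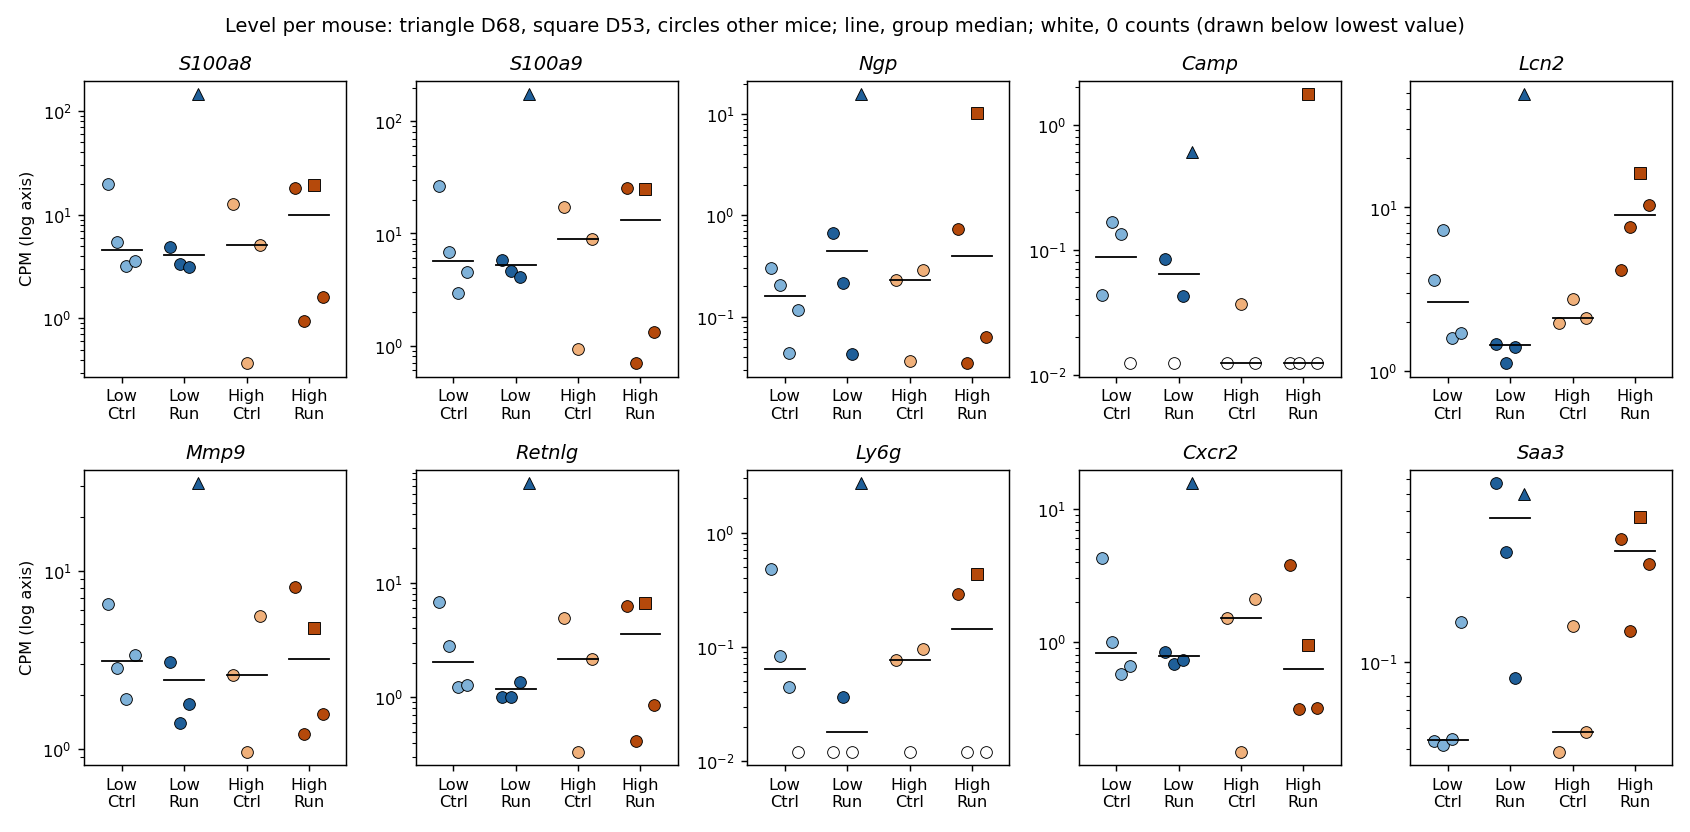
Level of each of the 10 genes in each mouse, in CPM on a log axis that differs between panels, by group. Triangles are D68, squares D53, circles the other mice, the line is the group median and white circles are mice with 0 counts, drawn below the lowest value. D68 is the highest mouse in 8 panels, D53 in Camp and D57 in Saa3.

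S100a8 (ENSMUSG00000056054, chr3:90668978-90670035 of GRCm38, plus strand) and S100a9 (ENSMUSG00000056071, chr3:90692632-90695721, minus strand) encode the 2 chains of calprotectin and lie next to each other in the S100 cluster. S100a8 was at 19.9, 5.46, 3.23 and 3.59 CPM in Low Control mice D8, D9, D11 and D98, and at 4.88, 3.39, 3.11 and 145 CPM in Low Run mice D57, D61, D66 and D68. In High Control mice D23, D25 and D67 it was at 12.8, 0.369 and 5.17 CPM, and in High Run mice D49, D52, D53 and D62 at 18.2, 0.939, 19.4 and 1.61 CPM. D68 therefore stood 7.29-fold above the next mouse, D8, and the other 3 Low Run mice lay within the range of the Low Control mice or just under it. All 4 groups overlapped, and D25, D52 and D62 were the lowest mice of the series.

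S100a9 ranked the mice almost as S100a8 did. It was at 26.4, 6.79, 2.96 and 4.55 CPM in Low Control mice, 5.80, 4.61, 4.09 and 174 in Low Run mice, 17.3, 0.923 and 8.95 in High Control mice and 25.3, 0.696, 25.1 and 1.32 in High Run mice, each in the order of mice given above. Over the 15 mice, log2 CPM of the 2 genes had a Pearson r of 0.98 and a Spearman rho of 0.98, and r was 0.99 without D68 and D25, the 2 mice farthest from the S100a8 median. The points share library and depth, and no p is given. D68 held 92.7% of the summed S100a8 CPM of the Low Run group and 92.3% of its S100a9 CPM.

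In mean levels the Low Run group came first for S100a8, at 39.1 ± 70.7 CPM (SD, n = 4), then High Run at 10.0 ± 10.1 (n = 4), Low Control at 8.05 ± 7.97 (n = 4) and High Control at 6.12 ± 6.28 (n = 3). Each SD was about as large as its mean or larger, so no 2 neighbours in that order differed beyond their spread. Without D68 the Low Run mean was 3.79 ± 0.949 CPM (n = 3), which placed it last.

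Retnlg (ENSMUSG00000022651, chr16:48872621-48874496, plus strand) encodes a secreted resistin-like protein made by myeloid cells. Its levels were 6.81, 2.81, 1.24 and 1.27 CPM in Low Control mice and 1.01, 1.01, 1.36 and 73.9 CPM in Low Run mice. High Control mice were at 4.90, 0.332 and 2.15 CPM and High Run mice at 6.30, 0.417, 6.58 and 0.850 CPM. Of the 10 genes it had the widest gap between the highest and the next mouse: D68 stood 10.9-fold above D8 and held 95.6% of the Low Run sum.

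The bases upstream of 3 genes that ranked the mice alike (S100a8, S100a9 and Retnlg), of Ngp, which was high in both D68 and D53, and of Saa3, which ranked them otherwise, are shown for comparison. They are the part of the 250 bases before the RefSeq start (GRCm38.p6) that also lies outside the GENCODE gene model, 5′ to 3′ on the strand of the gene. Capitals mark matches to 3 of 4 motifs searched in the 250 bases: TTGCNNAA on either strand, as bound by C/EBP factors that drive granule genes, GAGGAA on either strand, as bound by PU.1, and TATAAA on the sense strand. The remaining motif, the consensus of NF-kB on either strand, had no match.
S100a8, chr3:90668821-90668977 (plus strand): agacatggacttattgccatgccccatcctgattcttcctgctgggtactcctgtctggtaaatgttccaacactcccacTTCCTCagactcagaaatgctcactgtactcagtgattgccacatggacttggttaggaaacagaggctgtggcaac
S100a9, chr3:90695722-90695971 (minus strand): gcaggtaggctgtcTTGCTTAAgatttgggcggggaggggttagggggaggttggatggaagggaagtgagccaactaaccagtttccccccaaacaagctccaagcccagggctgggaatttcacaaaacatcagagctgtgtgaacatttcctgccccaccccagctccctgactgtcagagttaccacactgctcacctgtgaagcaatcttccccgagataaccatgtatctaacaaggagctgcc
Retnlg, chr16:48872358-48872607 (plus strand): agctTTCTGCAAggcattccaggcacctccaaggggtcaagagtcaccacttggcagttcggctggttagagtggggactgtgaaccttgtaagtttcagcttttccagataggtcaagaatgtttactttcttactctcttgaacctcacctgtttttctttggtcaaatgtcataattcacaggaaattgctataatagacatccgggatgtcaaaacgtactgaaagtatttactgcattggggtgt
Ngp, chr9:110419558-110419746 (plus strand): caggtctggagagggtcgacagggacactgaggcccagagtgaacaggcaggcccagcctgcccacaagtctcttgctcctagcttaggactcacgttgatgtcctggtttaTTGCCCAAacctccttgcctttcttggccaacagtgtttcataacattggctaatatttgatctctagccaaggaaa
Saa3, chr7:46715701-46715926 (minus strand): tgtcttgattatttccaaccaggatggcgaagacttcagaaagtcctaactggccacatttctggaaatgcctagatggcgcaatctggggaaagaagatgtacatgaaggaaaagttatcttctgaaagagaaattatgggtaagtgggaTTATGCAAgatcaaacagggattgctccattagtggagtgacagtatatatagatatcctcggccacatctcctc
Of the 9 genes with an entry in the RefSeq table (all but Mmp9), 6 held TTGCNNAA in the 250 bases (Lcn2, Ly6g, Ngp, Retnlg, S100a9 and Saa3), where 9.55% of 27025 promoters did. GAGGAA was present in 4 (Cxcr2, Lcn2, Ly6g and S100a8), against 23.1% of all promoters, TATAAA in 2 (Ly6g and S100a8), against 8.12%, and the NF-kB consensus in 0, against 1.40%. The TATAAA of S100a8 begins 30 bases before the RefSeq start, inside the GENCODE model and so outside the bases shown, and a GAGGAA match lies directly upstream of it. TTGCNNAA occurred both upstream of genes that were highest in D68 and upstream of Saa3. A match is a run of letters and not a measured binding site.

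The surface and receptor genes were lower in level and had the same high mouse. Cxcr2 (ENSMUSG00000026180, chr1:74153989-74161246, plus strand), the chemokine receptor that draws neutrophils from blood into tissue, was at 4.30, 0.993, 0.575 and 0.656 CPM in Low Control mice and at 0.841, 0.685, 0.725 and 15.6 CPM in Low Run mice. In High Control mice it was at 1.51, 0.148 and 2.11 CPM and in High Run mice at 3.79, 0.313, 0.940 and 0.315 CPM. D53, which was among the 3 highest mice in S100a8, was in the middle of the series in Cxcr2.

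Ly6g (ENSMUSG00000022582, chr15:75155240-75159126, plus strand), the surface antigen by which mouse neutrophils are usually recognised, had few counts. They were 11, 2, 1 and 0 in Low Control mice, 0, 1, 0 and 54 in Low Run mice, 2, 0 and 2 in High Control mice and 7, 0, 13 and 0 in High Run mice. Ly6g belongs to a family of similar genes, and the counts kept only uniquely aligned read pairs, so its level is uncertain. D68 held 54 of the 93 counts of the series, and the next mice were D53 and D8.

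Mmp9 (ENSMUSG00000017737, chr2:164940780-164955850, plus strand), the gelatinase that gives gelatinase granules their name, was spread less widely. It was at 6.51, 2.86, 1.90 and 3.36 CPM in Low Control mice, 3.07, 1.41, 1.79 and 31.1 in Low Run mice, 2.59, 0.960 and 5.55 in High Control mice and 8.15, 1.22, 4.80 and 1.57 in High Run mice. D68 stood 3.81-fold above D49, the next mouse.

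The specific granule genes departed from S100a8, each in its own way. Ngp (ENSMUSG00000032484, chr9:110419747-110423012, plus strand), neutrophilic granule protein, was at 0.304, 0.207, 0.0442 and 0.116 CPM in Low Control mice and at 0.673, 0.216, 0.0426 and 15.6 CPM in Low Run mice. In High Control mice it was at 0.232, 0.0369 and 0.287 CPM, and in High Run mice at 0.741, 0.0348, 10.21 and 0.0630 CPM. D68 had 311 counts and D53 had 304, while no other mouse had more than 18. Over the 15 mice, log2 CPM of Ngp and S100a8 had a Spearman rho of 0.90 and a Pearson r of 0.82. Ngp thus ranked the mice much as S100a8 did and stood apart in its level in D53. Without D68 and D25, r was 0.71.

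Camp (ENSMUSG00000038357, chr9:109847379-109849617, minus strand) encodes the cathelicidin precursor and was highest in D53. Its counts were 1, 4, 3 and 0 in Low Control mice, 2, 0, 1 and 12 in Low Run mice, 0, 1 and 0 in High Control mice and 0, 0, 52 and 0 in High Run mice. D53 thus held 52 of the 76 counts and D68 another 12, and all Camp counts of the High Run group were in D53. D8 and D49, among the 4 highest mice in S100a8, had 1 and 0 Camp counts. Ltf, the lactoferrin gene of the same granules, which was singled out after its values were seen, had 189 counts in D53, 70 in D68, 20 in D25 and at most 9 in any other mouse.

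The mix of specific granule and cytosolic transcripts was not the same in the 2 high mice. Of the summed counts of Ngp and S100a8, a pair chosen after the values were seen, Ngp made up 34.4% in D53 (304 of 883, 95% Wilson interval 31.4 to 37.6%) and 9.70% in D68 (311 of 3207, 8.72 to 10.8%). In the other 13 mice the share ran from 1.35% to 12.1% with a median of 3.65%. In D8, whose S100a8 level was close to that of D53, it was 1.502% (7 of 466, 0.730 to 3.07%), and in D49 3.91% (18 of 460, 2.49 to 6.10%). Intervals cover counting error only. For Ltf against S100a8 the share was 24.6% in D53 (189 of 768, 21.7 to 27.8%) and 2.36% in D68 (70 of 2966, 1.87 to 2.97%), but it was highest in D25, at 66.7% of only 30 counts (48.8 to 80.8%). For Retnlg against S100a8 the same share was 25.3% in D53 (22.4 to 28.5%) and 33.7% in D68 (32.4 to 35.2%), against 17.1% to 47.4% in the other mice. For Mmp9, of gelatinase granules, it was alike in both, at 19.8% in D53 (17.1 to 22.9%) and 17.6% in D68 (16.4 to 18.9%). The other 13 mice ran from 16.8% to 72.2% for Mmp9.

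**Figure D2:**
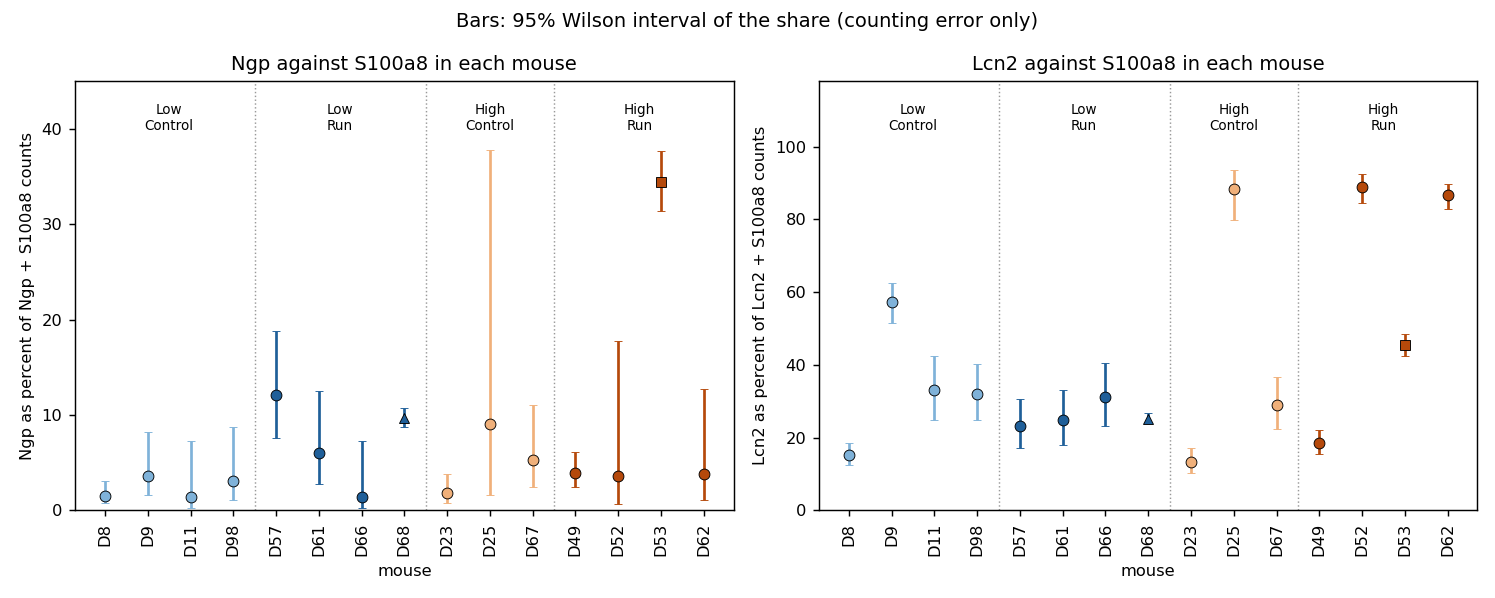
Ngp (left) and Lcn2 (right) counts as a percent of their sum with S100a8 counts in each mouse, with 95% Wilson intervals for counting error. D53 is the highest mouse for Ngp, at 34.4%, and D25, D52 and D62 are above 86% for Lcn2.

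Lcn2 (ENSMUSG00000026822, chr2:32384633-32388252, minus strand) encodes lipocalin-2, a siderophore-binding protein of specific granules that epithelial, fat and other cells also make in inflammation. It was at 3.602, 7.29, 1.59 and 1.70 CPM in Low Control mice and at 1.47, 1.12, 1.41 and 49.02 CPM in Low Run mice. In High Control mice it was at 1.97, 2.77 and 2.11 CPM and in High Run mice at 4.16, 7.58, 16.2 and 10.4 CPM. All 4 High Run mice were above all 3 High Control mice, and the 3 Low Run mice other than D68 were below every Low Control mouse.

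Lcn2 was the only one of the 10 genes whose groups did not overlap in a comparison. Between High Run and High Control mice 1 of 10 genes (Lcn2) was separated in this way, where 7.07% of all 16920 genes tested were. In the other 3 comparisons 0 of 10 were, against 6.93% of all genes for Low Run and Low Control, 10.4% for High Control and Low Control and 1.5% for High Run and Low Run. Mean Lcn2 was 13.2 ± 23.9 CPM in Low Run mice (1.33 ± 0.189 without D68), 9.58 ± 5.09 in High Run mice, 3.54 ± 2.66 in Low Control mice and 2.28 ± 0.428 in High Control mice (n = 4, 4, 4 and 3). The mean ± SD ranges of neighbours in this order overlapped, and without D68 the Low Run group moved from first to last.

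Within single mice Lcn2 and S100a8 came apart. Lcn2 made up 89.0% of the counts of the pair in D52 (218 of 245, 84.4 to 92.3%), 86.6% in D62 (330 of 381, 82.8 to 89.7%) and 88.2% in D25 (75 of 85, 79.7 to 93.5%), the 3 mice lowest in S100a8. It made up 25.2% in D68 (23.9 to 26.6%) and 13.3% in D23 (10.3 to 17.1%). Pearson r between log2 CPM of Lcn2 and S100a8 was 0.48 over 15 mice, with a rho of 0.34, and fell to -0.14 without D68 and D53, the 2 mice farthest from the Lcn2 median.

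Saa3 (ENSMUSG00000040026, chr7:46711998-46715700, minus strand), a serum amyloid made outside the liver, had between 1 and 16 counts in a mouse. They were 1, 1, 1 and 4 in Low Control mice and 16, 9, 2 and 12 in Low Run mice. High Control mice had 1, 4 and 1 counts and High Run mice 9, 4, 14 and 9. Saa3 was the only one of the 10 genes in which D68 did not stand apart: D57 was the highest mouse at 0.673 CPM, and D68 followed at 0.602 CPM.

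In Saa3 the Run groups came first, at 0.421 ± 0.270 CPM in Low Run (n = 4) and 0.316 ± 0.140 in High Run (n = 4), against 0.0781 ± 0.0605 in High Control (n = 3) and 0.0708 ± 0.0557 in Low Control (n = 4). Low Run D66 lay inside the Low Control range and High Run D52 inside the High Control range, so both pairs of groups overlapped by 1 Run mouse. Without D68 the Low Run mean was 0.361 ± 0.295 CPM, and without D53 the High Run mean was 0.264 ± 0.117 CPM, which left the order of the 4 means as it was.

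Over the whole list, D68 was the highest mouse in 8 of the 10 genes and among the 2 highest in all 10. D53 was among the 3 highest in 7 genes, D8 in 6 and D49 in 4. D25 was at or below the median of the 15 mice in all 10 genes. The summed level of the 10 genes was 508 CPM in D68, 85.9 in D53, 68.4 in D8, 67.3 in D49 and 41.4 in D23, and between 5.72 and 26.7 CPM in the other 10 mice.

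**Figure D3:**
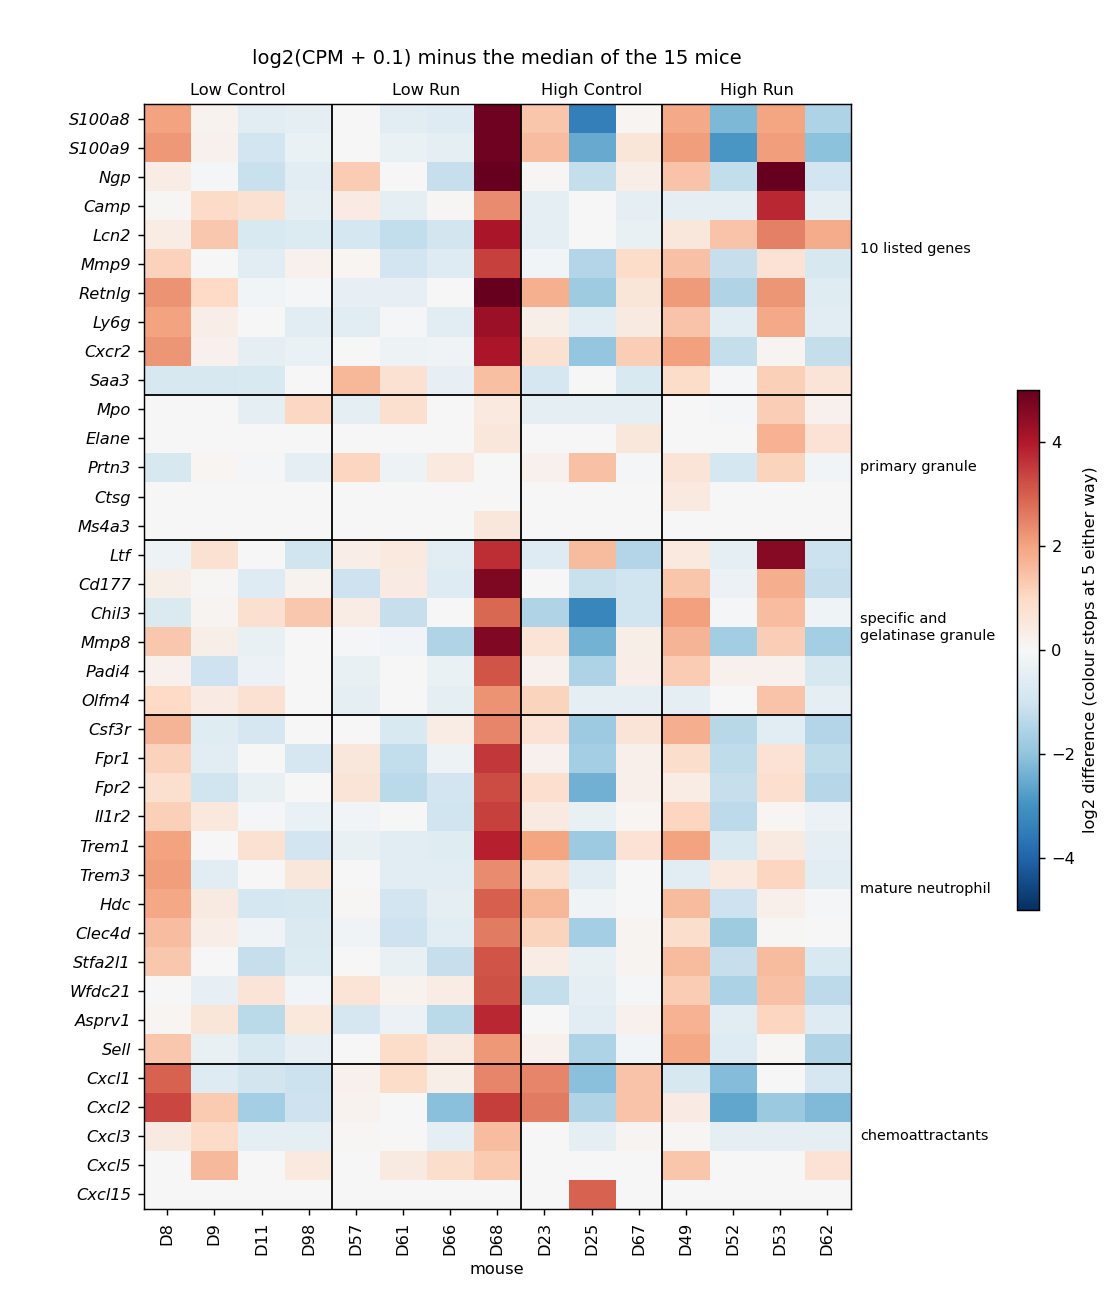
log2(CPM + 0.1) minus the median of the 15 mice for the 10 genes and for 4 lists of related genes (rows) in each mouse (columns, by group), with colours ending at 5 on the log2 scale either way. The D68 column is high in the specific and gelatinase granule rows and the mature neutrophil rows, and D53 is high in Ngp, Camp and Ltf. The 5 primary granule rows rest on few counts, and 2 of them are highest in D53.

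Fold changes were fitted on all 16920 genes that passed the count filter, which kept 9 of the 10 genes and left out Camp. The filter asks for about 10 counts in at least 3 mice, so a gene could pass through the mice in which it was high. For Low Run against Low Control the log2 fold change was 2.28 (SE 1.29) for S100a8, 2.21 (SE 1.32) for S100a9, 2.66 (SE 1.30) for Retnlg, 4.57 (SE 1.75) for Ngp, 1.89 (SE 0.99) for Lcn2 and 2.45 (SE 0.69) for Saa3. Mmp9 was at 1.34, Ly6g at 2.11 and Cxcr2 at 1.44. All 9 were positive, with a median of 2.21, and the median of all genes tested was 0.02. Markers of other cells also had positive values in this comparison: the median log2 fold change was 3.34 for B cell markers (4 of 5 upward at an unadjusted p under 0.05), 2.75 for T cell markers (2 of 2), 1.12 for monocyte markers (2 of 3) and 1.45 for proliferation genes (2 of 3), where 1002 of all 16920 genes were upward at that p, and it was -1.19 for erythroid markers. The summed B cell, T cell, monocyte and proliferation lists were highest in D61 and not in D68. Their part in the fold changes of the 10 genes was not tested.

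Without D68 most of these values turned to the other side of 0. The fitted log2 fold change was -1.10 (SE 1.05) for S100a8, -1.08 (SE 1.11) for S100a9, -1.43 (SE 0.95) for Retnlg, -1.42 (SE 0.53) for Lcn2, -0.82 (SE 0.67) for Mmp9 and -1.12 (SE 0.96) for Cxcr2. Ngp dropped to 0.85 (SE 1.603), Ly6g no longer passed the filter, and Saa3 stayed at 2.23 (SE 0.73). The median of the 8 genes was -1.09.

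**Figure D4:**
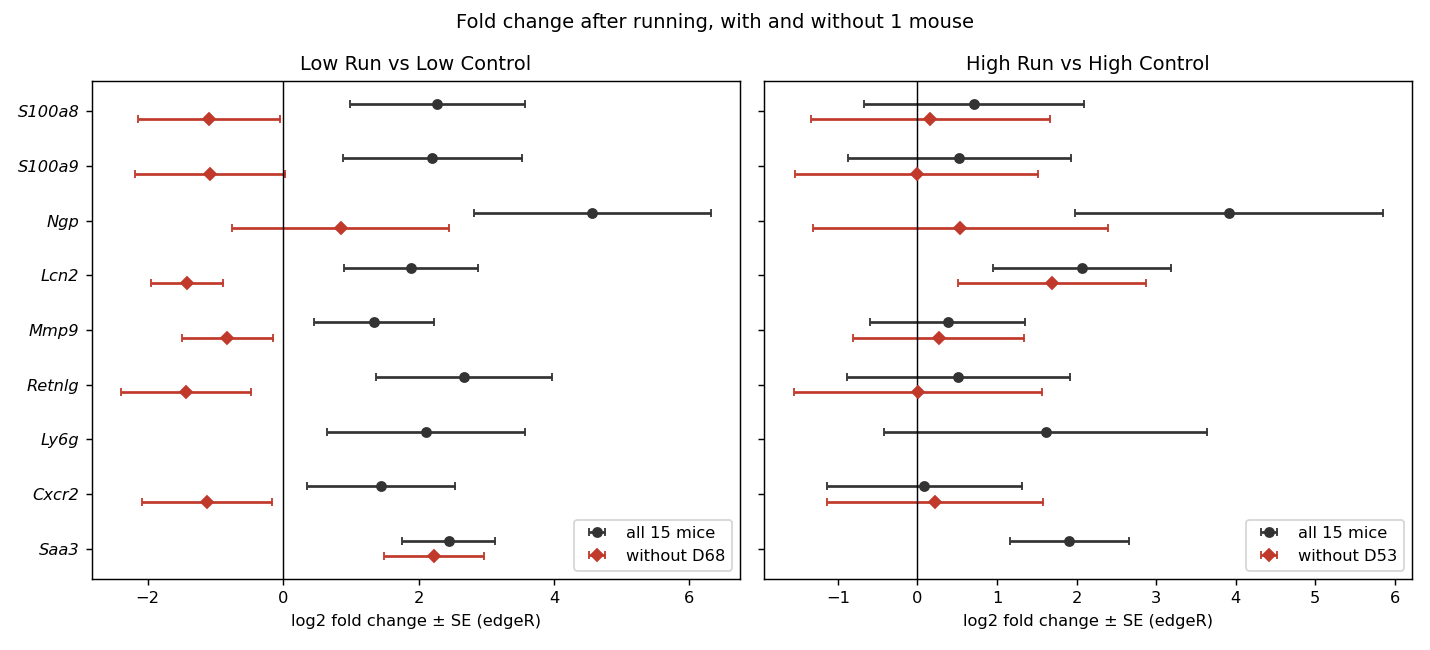
log2 fold change with its SE from edgeR for Low Run against Low Control (left) and High Run against High Control (right), with all 15 mice (grey circles) and without D68 or D53 (red diamonds). Genes that did not pass the count filter without the mouse have no diamond. On the left 6 genes change sign without D68 and Saa3 stays at 2.23, and on the right Ngp moves from 3.91 to 0.54.

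For High Run against High Control the log2 fold change was 3.91 (SE 1.94) for Ngp, 2.07 (SE 1.12) for Lcn2, 1.91 (SE 0.75) for Saa3 and 1.61 (SE 2.02) for Ly6g, and the other 5 genes lay between 0.09 and 0.71. The median was 0.71, beside 0.05 over all genes. Erythroid markers had a median of 2.27 in the same comparison (7 of 7 upward at an unadjusted p under 0.05, where 555 of all 16920 genes were), monocyte markers 1.49 (2 of 3), macrophage markers 0.77 (4 of 8), T cell markers 2.28 (1 of 2) and proliferation genes 1.30 (1 of 3), and their part was not tested. Without D53, Ngp dropped to 0.54 (SE 1.85), Lcn2 was 1.69 (SE 1.19), Saa3 and Ly6g no longer passed the filter, and the median of the 7 genes left was 0.22. Without D49 the median was 0.24 over 9 genes, 3 of which changed sign, and without D25 4 of the 9 changed sign. The median was 0.58 without D25, 1.73 without D23 and 1.42 without D67, each over 10 genes, since Camp then passed the filter. With voom quality weights the median over 9 genes was -0.08 and 6 of them changed sign.

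With 3 High Control and 4 Low Control mice, no difference between these groups was resolved in these genes. Log2 fold changes ran from -1.36 (SE 2.10) for Ly6g to 0.14 (SE 0.89) for Saa3, 2 of 9 were positive, and the median was -0.30 beside -0.02 over all genes. It was 0.50 without D8 and 0.15 without D25, so the side of 0 on which it fell depended on either of these mice. Erythroid markers had a median of -1.62 here, with 4 of 7 downward at an unadjusted p under 0.05, where 687 of all 16920 genes were.

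High Run against Low Run gave values below 0 for all 9 genes, from -2.45 (SE 1.28) for Retnlg to -0.40 (SE 0.56) for Saa3, with a median of -1.75 beside 0.01 over all genes. Without D68 the median was 1.41. The Frailty × Run interaction, the change with running in High mice minus that in Low mice, had a median of -0.96 beside 0.03 over all genes, 1.70 without D68 and -2.12 without D53. With voom quality weights the interaction median was -0.08. Erythroid markers had medians of 1.76 and 3.31 in these 2 comparisons, and B cell markers -1.72 and -1.87. Both comparisons share their groups of mice with the ones above.

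At a false discovery rate (FDR) of 0.1, edgeR's quasi-likelihood test called 0 of the 9 genes in each of the 5 comparisons, and 0% of all genes tested. At an unadjusted p under 0.05 it counted 2 of 9 for Low Run against Low Control (Ngp and Saa3), where 13.4% of all genes did, and 1 for High Run against High Control (Saa3), where 5.18% did. It counted 0 for High Control against Low Control, where 5.86% of all genes did, 0 for High Run against Low Run (2.51%) and 0 for the interaction (7.93%). DESeq2 gave no p for Ngp and Camp, and for High Run against High Control no adjusted p for Ly6g and Saa3. It called 0 of the others at an FDR of 0.1, with 0.0374% and 0.0934% of its genes called for the comparisons of Run with Control in Low and High mice and 0% in the other 3. At an unadjusted p under 0.05 DESeq2 counted 2 of these 8 for Low Run against Low Control (7.47% of all genes), 1 for High Run against High Control (3.23%), 0 for High Control against Low Control (3.53%), 0 for High Run against Low Run (1.67%) and 0 for the interaction (4.72%). Nothing is read from these counts, since the genes were chosen with these mice in view.

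The spread between mice of a group was wide for these genes. The biological coefficient of variation that edgeR fitted ran from 0.473 for Saa3 and 0.810 for Mmp9 to 1.34 for Ngp and 1.61 for Ly6g, where the value common to all genes was 0.266.

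Other granule and neutrophil genes followed the same mice. Of 6 further genes of specific and gelatinase granules D68 was the highest mouse in 5 and D53 in 1 (Ltf), and of 12 genes of mature neutrophils D68 was the highest in all 12. The granule list summed to 55.2 CPM in D68, 13.9 in D53 and 10.4 in D49, with a median of 3.31, and the mature neutrophil list to 88.3 in D68, 35.6 in D8, 35.4 in D49 and 12.8 in D53, with a median of 10.7. D53 was thus at rank 2 in the summed granule list and rank 6 in the mature neutrophil list. Ltf alone made up 6.35 of the 13.9 CPM in D53, with 189 counts there and 7 in D49. The place of D53 above D49 in the granule list therefore rested on Ltf.

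The 2 most abundant genes of the granule list were Mmp8, neutrophil collagenase, and Chil3, a chitinase-like protein that macrophages also make. Mmp8 was at 30.7 CPM in D68 and between 0.148 and 3.95 CPM in the other mice, and Chil3 at 6.87 CPM in D68 and at 0 to 3.83 in the others. Of the mature neutrophil list, Csf3r, the receptor of granulocyte colony-stimulating factor, was at 23.01 CPM in D68, 14.7 in D49, 13.7 in D8 and 2.85 in D53. Hdc, the enzyme that makes histamine, was at 18.2 CPM in D68, 8.72 in D8 and at most 7.14 in the rest.

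In Low Run against Low Control, 5 of 5 tested genes of the granule list were positive with a median log2 fold change of 2.31, and 11 of 11 of the mature neutrophil list with a median of 1.35. In High Run against High Control the medians were 2.16 (5 of 5 positive) and 0.07 (7 of 11). At an FDR of 0.1 edgeR called 0 genes of either list in any comparison. At an unadjusted p under 0.05 it counted 2 granule genes upward in Low mice, where 1002 of all 16920 genes went upward, and 1 in High mice, where 555 did. It counted 1 granule gene downward for High Control against Low Control, where 687 of all genes did, and 0 mature neutrophil genes in any comparison.

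Primary granule genes, which are transcribed in bone marrow precursors, were close to 0 in all 15 mice. Ctsg had 1 count in the series, and Mpo had between 0 and 7 counts, the 7 in D53 and 2 in D68. Prtn3 was the only one of the 5 to pass the filter and had between 1 and 16 counts, with 13 in D53, 3 in D68 and the 16 in D25. The list summed to 0.906 CPM in D53 and 0.351 in D68, with a median of 0.252.

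Chemoattractants separated the high mice further. Cxcl1, a ligand of Cxcr2, was at 14.2 CPM in D8, 9.93 in D68, 9.89 in D23 and 4.88 in D67, and at 1.75 in D53 and 0.947 in D49. Cxcl2, a second ligand, was at 6.47 CPM in D68, 6.08 in D8 and 3.51 in D23, and at 0.70 in D49 and 0.0671 in D53. Among the mice high in S100a8, D8, D23 and D68 were thus also high in both ligands. D53 and D49 were at or below the median of 1.75 CPM in Cxcl1, and D49 was above the median of 0.50 CPM in Cxcl2. In High Run against High Control both tested genes of the list had negative values, with a median log2 fold change of -2.76, and 0 were called at an FDR of 0.1 (1 downward at an unadjusted p under 0.05, where 322 of all 16920 genes were). For High Run against Low Run the list had a median of -2.72, with 1 gene downward at that p, where 167 of all genes were.

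Of the 17 further acute-phase genes D68 was the highest mouse in 5 and D53 in 1, and the summed list was highest in D52 (322 CPM), with D68 at rank 4 (256 CPM) and D53 at rank 6 (239 CPM). The 5 were Lrg1, Hp (34.2 CPM), Serpina3n (34.9 CPM), Orm2 (1.45 CPM) and Saa1, of which Hp, Serpina3n, Orm2 and Saa1 are named here after their values were seen. C3, the central complement component and the most abundant of them, was at 236 CPM in D52, 203 in D49, 105 in D68 and 150 in D53, with a lowest value of 65.1 in D62. Lrg1, a leucine-rich glycoprotein stored in neutrophil granules and made in the acute phase, was at 47.9 CPM in D68, 36.8 in D62, 29.8 in D9 and 27.9 in D53, and between 11.8 and 22.7 in the rest. Of the 9 that passed the filter, 5 were positive in Low Run against Low Control (median log2 fold change 0.08) and 6 in High Run against High Control (median 0.39). At an FDR of 0.1 edgeR called 0 of them in each comparison, and at an unadjusted p under 0.05 it counted 1 downward and 0 upward in Low mice (of all 16920 genes, 1272 and 1002) and 1 in each direction in High mice (322 downward and 555 upward). It also counted 1 in each direction for High Control against Low Control, where 305 of all genes went upward and 687 downward. For the interaction it counted 1 in each direction, where 887 of all genes went upward and 455 downward. For High Run against Low Run it counted 1 upward, where 257 of all genes did. Saa1, a serum amyloid made mainly by the liver, had between 1 and 20 counts, the 20 in D68.

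Of the cytokines and transcription factors that regulate these genes, Cebpb and Cebpd were the most abundant. Cebpd was at 490 CPM in D62, 416 in D9, 177 in D68 and 153 in D53, and at 18.4 to 146 CPM in the other 11 mice. These mice, D62, D9, D68 and D53, were also among the 5 highest in Lcn2. D52, at rank 4 in Lcn2, had a Cebpd level of 58.0 CPM, where the median was 78.7. Whether Cebpd had a part in the level of Lcn2 was not tested. Cebpb ran from 93.1 to 307 CPM, with D9 the highest and D62 second. Of the receptors that bind the products of the list, Cap1, a binding partner of resistin, ran from 25.6 to 37.7 CPM, and Slc22a17, a receptor of lipocalin-2, from 2.86 to 6.31 CPM. In neither list did edgeR call a gene at an FDR of 0.1 in any comparison, and at an unadjusted p under 0.05 it counted 1 of these cytokines and factors downward for High Control against Low Control (687 of all 16920 genes) and 1 downward for High Run against Low Run (167 of all genes), and 0 in the other comparisons and in the receptor list.

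The genes whose log2 CPM was most like that of S100a8 over the 15 mice, outside the 10, were Mmp8 (Pearson r 0.97, Spearman rho 0.99), the formyl peptide receptor gene Fpr1 (0.93, 0.89), the C-type lectin gene Clec4e (0.93, 0.91), Fpr2 (0.93, 0.87) and Slfn1 (0.92, 0.76). Without D68 and D25, r for these was 0.94, 0.85, 0.89, 0.81 and 0.80. For Lcn2 they were Lrg1 (0.89, 0.84), Spcs3 (0.87, 0.81), Fscn2 (0.85, 0.84), Tmem120a (0.85, 0.66) and Fam50a (0.85, 0.71), and without D68 and D53 r was 0.82, 0.72, 0.83, 0.60 and 0.76. For Saa3 they were Cotl1 (0.86, 0.89), Ywhah (0.85, 0.87), B630019K06Rik (0.84, 0.83), Spg21 (0.84, 0.85) and Fcer1g (0.82, 0.82), and without D68 and D57 r was 0.80, 0.74, 0.80, 0.84 and 0.72. No neutrophil granule gene was among the 5 of Saa3. When the 5 most alike were chosen again without those mice, 3 of 5 genes were shared for S100a8, 0 for Lcn2 and 1 for Saa3. These values describe the same 15 libraries and carry no p.

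Markers of blood and of other cells stood at an extreme in both high mice, though in different lists. The 7 erythroid markers were all highest in D53 and summed to 3881 CPM there, against 2395 in D11, 830 in D68 and a median of 563. The platelet markers (34.0 CPM, median 14.6) and mast cell markers (40.4 CPM, median 19.2) were also highest in D53, and the proliferation genes second highest (4.13 CPM, median 1.35). D11 was second in erythroid and platelet markers and at 3.23 CPM in S100a8, among the lower mice.

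D68 ranked 6 of 15 in erythroid markers, 4 in platelet markers at 24.5 CPM, 9 in macrophage markers (108 CPM, median 120) and 9 in monocyte markers (7.42 CPM, median 7.60). It was the lowest of all mice in B cell markers (36.5 CPM, median 145). In the summed keratinocyte markers it was the highest (3.71 CPM, median 2.52), and Krt10 alone made up that sum, at 3.71 CPM. By group, erythroid markers summed to between 490 and 2395 CPM in Low Control, 245 and 830 in Low Run, 313 and 489 in High Control and 386 and 3881 in High Run mice. Macrophage markers ran from 83.1 to 164, 108 to 170, 62.8 to 107 and 95.7 to 203 CPM in the same order, and monocyte markers from 3.77 to 9.20, 7.42 to 12.0, 3.55 to 4.45 and 2.90 to 11.1 CPM. Eosinophil markers were at or below 0.472 CPM, with Epx at 0 in every mouse. T cell, adipocyte, fibroblast and endothelial markers placed D68 at ranks 10, 13, 10 and 12 and D53 at ranks 3, 6, 3 and 14 of 15. Whether blood left in the muscle or another cell type had a part in the levels of the 10 genes was not tested.

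**Figure D5:**
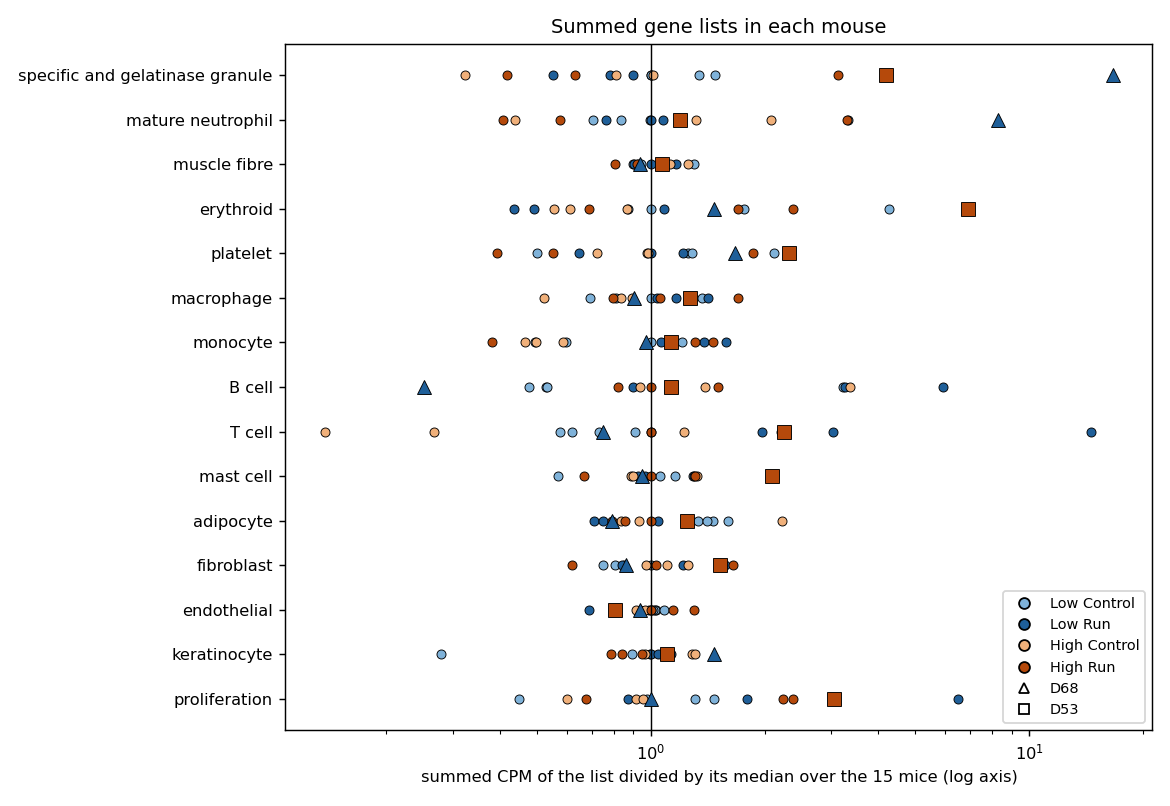
Summed CPM of each gene list in each mouse divided by the median of the 15 mice, on a log axis, with colours for groups, triangles for D68 and squares for D53. D68 lies far to the right in both neutrophil lists and near the middle in macrophage, monocyte and muscle fibre lists, and D53 is the rightmost mouse in erythroid, platelet and mast cell lists.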

How the data were processed

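RNA from gastrocnemius of 15 mice was used. The authors aligned reads with STAR 2.7.9a to mm10, counted uniquely aligned proper pairs per non-mitochondrial Ensembl gene with featureCounts and deposited the counts without normalization; the Subread version is given differently in the sources used here (2.0.3 in the submitters' processing notes). A second, variance-stabilized table was not used. Gene symbols and positions were taken from the GENCODE M21 annotation (GRCm38), where 55104 of 55450 genes had a symbol.

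The members and the related gene lists were chosen with earlier results of these data known. Genes were kept by filterByExpr, scaled by TMM and fitted with 1 mean per group by edgeR 4.0.16 (quasi-likelihood test, R 4.3.3) over all 15 mice, with Benjamini-Hochberg adjustment over 16920 genes. The study's DESeq2 test (version 1.42.0 here) and limma 3.58.1 voom were alternatives. The code was tested on simulated data with 200 changed genes. Library totals ran from 19395125 to 30699216 counts, so a gene at 3 counts stands at 0.0945 to 0.150 CPM. Levels between genes were compared per kilobase of merged exons. Libraries of a group differed beyond sampling noise (chi-square per degree of freedom 15.7 to 191 over 21 pairs). Named genes were the 10 members, the 2 most abundant genes of each related list with any called at an FDR of 0.1 (there were 0), beside Ltf, Ctsg, Saa1, Hp, Serpina3n and Orm2, which were chosen after their values were seen, and for S100a8, Lcn2 and Saa3 the 5 genes of highest Pearson r of log2 CPM (prior count 2). Intervals are 95% Wilson intervals (SciPy 1.17.1), and promoter bases are from RefSeq.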

Additional observations from a re-analysis of the deposited data

Results flagged for a closer look

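In groups of 4 mice, a mouse was singled out where its gap to the nearest mouse exceeded 0.829 of the range of the group, a rule that chance meets in about 1 in 20 groups. That rate does not apply to these genes, which were chosen with single high mice in view, so the mice below are a description. The rule was applied to 30 gene and group pairs, and the 3 High Control mice were not examined. D68 met it at the high end of the Low Run group in 9 genes: S100a8 (145 CPM), S100a9 (174), Retnlg (73.9), Lcn2 (49.02), Mmp9 (31.1), Cxcr2 (15.6), Ngp (15.6), Ly6g (2.71) and Camp (0.602). D53 met it in the High Run group in Ngp (10.21 CPM) and Camp (1.75). In the Low Control group D8 met it in S100a8 (19.9 CPM), S100a9 (26.4) and Cxcr2 (4.30), and D98 in Saa3 at 0.154 CPM, which is 4 counts against 1 in each of the other 3 mice.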

How the results depend on the processing

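The count of the 10 genes called at an FDR of 0.1 was 0 in all 5 comparisons and in all 84 alternatives run: RLE scaling, no count filter or at least 10 counts in every mouse, voom with quality weights, DESeq2, only the 2 groups compared, an FDR of 0.05, each mouse left out in turn (0 to 0), and both D68 and D53 left out, which was added after seeing the data. Not all 10 genes had a p in each fit: 9 did in the main fit, 8 in DESeq2 and 4 with at least 10 counts in every mouse. The main fit also called 0 genes of the whole table, so these counts say little about the 10 genes in particular. Of 648 refitted log2 fold changes, 63 moved by more than the SE of the value reported. With voom quality weights the median log2 fold change for Low Run against Low Control was 0.06 in place of 2.21, for High Run against High Control -0.08 in place of 0.71 (6 of 9 genes changed sign) and for the interaction -0.08 in place of -0.96. Without D68 and D53 the first was -1.10. Without a count filter edgeR called 86 genes of the whole table in that comparison and 19 in High Run against High Control, and voom called 45 in the latter, where the main count was 0; DESeq2 called 10 and 15. CPM on raw totals moved no group mean by more than its SD. That margin was wide, as for S100a8 each SD was about as large as its mean or larger, so little can be read from it. With a prior count of 0.5, 4 of the 5 genes most like each of S100a8, Lcn2 and Saa3 were shared. No paired analysis was possible because the labels give each mouse its own number, shared by no other group. With 3 or 4 mice a group, 1 mouse sets the mean of most of these genes, and Camp, Ly6g and Saa3 rest on at most 54 counts in a mouse.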
